A study of Mus musculus with 2 samples.

Results

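The genes described here mark smooth muscle cells, pericytes and myofibroblasts: Acta2, Tagln, Myh11, Cnn1, Smtn, Mylk, Rgs5, Notch3, Pdgfrb and Cspg4. They are 10 of the 24346 gene symbols in the deposited tables and were taken by name. RNA was sequenced from mouse heart tissue kept in RNAlater and frozen, in a model labelled as high-fat diet and myocardial infarction, with 1 library from probucol-treated and 1 from untreated tissue. Probucol is an antioxidant drug that lowers cholesterol. Both libraries carry the age label day 14, but no source used here says from which event the days count. The column headers name both libraries HypoE, a name used for mice with reduced expression of apolipoprotein E, but the labels state no genotype, strain or sex. The part of the heart sampled, and whether a library holds 1 animal or a pool, are likewise not stated in the labels. Values are FPKM, that is, fragment numbers divided by transcript length and by library size, so levels can be compared between genes. How library size was measured or scaled is not stated in the sources used here. With 1 library per group no difference has a replicate check and no p-value is given.

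Smooth muscle cells wrap arteries and veins and contract when the myosin light chain kinase phosphorylates myosin, which then pulls on smooth muscle actin. Pericytes sit on capillaries, depend on platelet-derived growth factor (PDGF) from endothelial cells, and carry PDGF receptor beta, the proteoglycan NG2 and the receptor Notch3. After infarction, fibroblasts of the scar can become myofibroblasts, which take up smooth muscle actin and its partner proteins while they deposit collagen. Many contractile genes are switched on by serum response factor (SRF) and its partners myocardin and the myocardin-related factors, which act at CArG boxes.

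Acta2 was measured beside close relatives that heart muscle makes in far larger amounts, so the sequences that separate them are shown first. Acta2, Acta1 (the skeletal actin) and Actc1 (the cardiac actin) each have 1134 coding bases, of which Acta2 shares 85.4% with Acta1 and 82.5% with Actc1. The first 90 coding bases of each gene, from the GENCODE transcripts on GRCm38 (mm10), lie in 1 exon on the minus strand, and capitals mark bases that differ from Acta2.
Acta2 (chr19:34252464-34252553): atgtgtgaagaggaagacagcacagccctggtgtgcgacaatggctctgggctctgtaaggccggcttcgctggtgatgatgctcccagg
Acta1 (chr8:123893608-123893697): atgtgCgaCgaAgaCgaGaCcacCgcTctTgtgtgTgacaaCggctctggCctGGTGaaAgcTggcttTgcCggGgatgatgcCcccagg
Actc1 (chr2:114051942-114052031): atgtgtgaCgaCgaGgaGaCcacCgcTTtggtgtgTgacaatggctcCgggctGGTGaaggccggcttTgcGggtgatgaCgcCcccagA
The differences number 22 for Acta1 and 19 for Actc1, spread along the stretch. Over the whole Acta2 transcript, 7 of 1986 windows of 50 bases also occur letter for letter in other genes, namely Actg1 and its copies, and none in Acta1 or Actc1. Windows that differ by a few bases were not counted, and the read length was not known. Whether reads of the more abundant actins were assigned to Acta2 was therefore not tested.

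The 3 actins also share CArG boxes before their starts. The search, on both strands, took any 10 bases that begin with CC, end with GG and have at least 5 A or T among the 6 between them; the pattern reads alike on both strands. In the 250 bases before the starts in the RefSeq table (GRCm38.p6), Acta2 held 2 matches, Acta1 3 and Actc1 4. Of 32851 promoter entries, 8.59% held at least 1 match and 0.67% at least 2. For each gene 2 elements are printed in capitals with 10 bases on either side, all on the minus strand. The remaining matches, of Acta1 at 205 bases and of Actc1 at 87 and 138 bases, are not printed. Those printed for Actc1 are thus not its nearest 2. The search pattern sets most letters of an element, so likeness between elements is largely fixed by the search.
Acta2 at 34 bases before the start (chr19:34255388-34255417): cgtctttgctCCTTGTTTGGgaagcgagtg
Acta2 at 84 bases (chr19:34255438-34255467): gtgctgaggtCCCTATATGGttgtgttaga
Acta1 at 73 bases (chr8:123894829-123894858): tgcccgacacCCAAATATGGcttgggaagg
Acta1 at 154 bases (chr8:123894910-123894939): ccagtcctctCCTTCTTTGGtcagtgcagg
Actc1 at 47 bases (chr2:114052903-114052932): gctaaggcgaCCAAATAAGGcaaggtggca
Actc1 at 175 bases (chr2:114053031-114053060): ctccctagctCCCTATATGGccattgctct
The element of Acta2 at 84 bases and that of Actc1 at 175 bases have the same 10 bases. All other matches of Acta1 and Actc1, printed or not, differ from both Acta2 elements. In GENCODE the first exon of Acta2 begins further upstream, so that both Acta2 elements lie inside its untranslated part there. Of the 10 genes, 7 have an entry in the table, and of these 7 only Acta2 had matches, beside 8.59% of all entries. The windows of Mylk (chr16:34784700-34784949) and Smtn (chr11:3539293-3539542) lie inside these genes as GENCODE draws them. The bases before the GENCODE starts of Mylk and Smtn were therefore not searched. Tagln, Myh11 and Pdgfrb have no entry and were not searched, so nothing is known here about their elements. A match describes letters in this window and says nothing about binding.

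The 10 genes spanned a wide range of levels and kept nearly the same order in both libraries. Rgs5, a regulator that shortens signalling by G protein-coupled receptors and a classical pericyte marker, was the most abundant, with 179.5 FPKM with probucol and 238.4 without. Acta2 came next (56.7 and 65.2 FPKM), then Tagln (32.5 and 35.4), Smtn (22.3 and 23.0), Pdgfrb (7.81 and 11.3), Myh11 (7.69 and 5.47), Notch3 (5.06 and 5.003) and Mylk (4.76 and 4.62). Cnn1 and Cspg4 held the last places and exchanged them, with Cnn1 at 1.595 and 1.581 FPKM and Cspg4 at 1.37 and 2.32. All 10 passed the filter on low values, a mean of at least 0.5 FPKM, as did 12882 genes in all. Among these, Rgs5 was the gene of rank 531 with probucol and 420 without, and Cspg4 had ranks 11158 and 10376. Smooth muscle myosin was thus sparse beside smooth muscle actin, with an Acta2 level 7.38 times that of Myh11 with probucol and 11.9 times without.

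**Figure D1:**
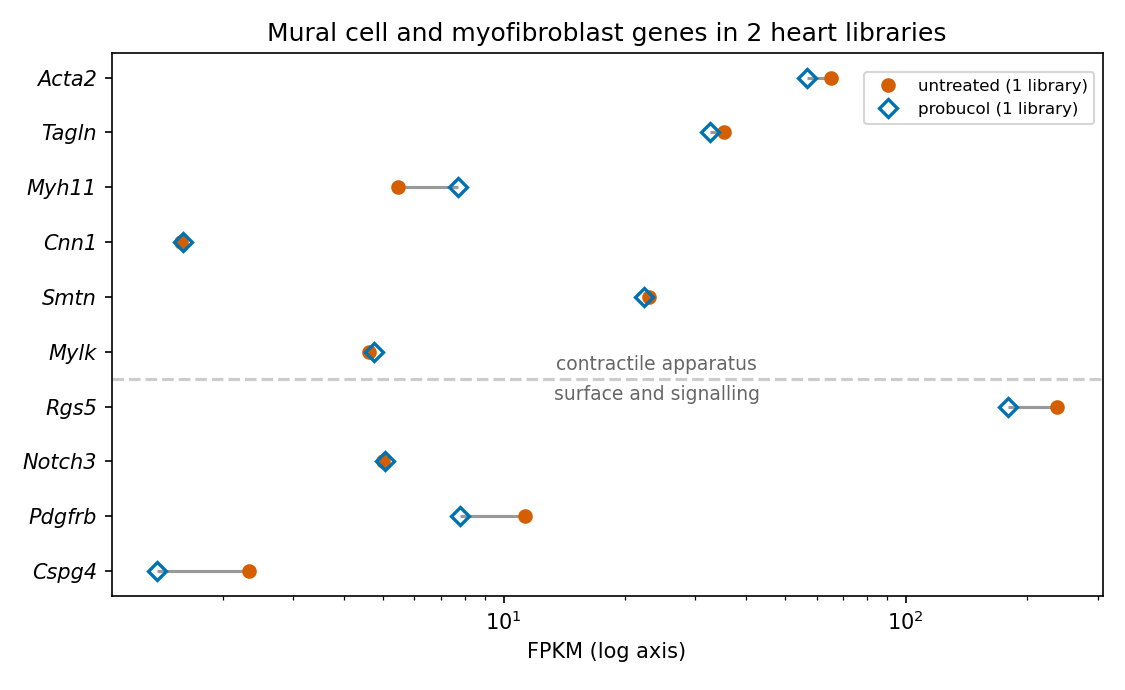
FPKM on a log axis for the 10 genes, 1 point per library (diamonds probucol, circles untreated, joined by a line); the dashed line separates the contractile genes from the surface and signalling genes. Symbols nearly coincide for Cnn1, Smtn, Mylk and Notch3, Myh11 lies to the right with probucol, and Rgs5, Pdgfrb and Cspg4 lie to the left.

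Differences are given as log2((FPKM probucol + 0.5)/(FPKM untreated + 0.5)), which understates the difference of low genes. Beside them stands the plain FPKM ratio with an exact 95% binomial interval (Clopper-Pearson), from estimated fragment numbers. These intervals cover counting error and nothing else, since amplified fragments are not independent molecules. From the spacing of the lowest values, 1 FPKM over an effective 1 kb corresponds to 6.69 fragments with probucol and 7.46 without.

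The contractile genes differed little between the libraries, with Myh11 as the exception. Acta2, which encodes smooth muscle alpha-actin (chromosome 19, 34241090 to 34255590, minus strand), had 56.7 against 65.2 FPKM, a log2 ratio of -0.20. Its FPKM ratio of 0.870 had an interval from 0.787 to 0.963, on about 693 against 888 fragments, so the library with probucol was lower by slightly more than counting error. Tagln encodes transgelin (SM22), an actin-binding protein of smooth muscle (chromosome 9, 45929619 to 45936058, minus strand). It had 32.5 against 35.4 FPKM (log2 ratio -0.12), with an interval from 0.785 to 1.07 that includes no difference. In bulk tissue, fewer cells of a type and less RNA per cell cannot be told apart, here and in all that follows.

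Myh11, the myosin heavy chain of differentiated smooth muscle (chromosome 16, 14194535 to 14291372, minus strand), was higher in the probucol library. It had 7.69 against 5.47 FPKM, a log2 ratio of 0.46. The ratio of 1.41 had an interval from 1.19 to 1.67, on at least 309 against 245 fragments. Myh11 and Acta2 thus lay on opposite sides of 1, each beyond counting error.

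The remaining contractile genes were near equal. Smtn, which encodes smoothelin of contractile smooth muscle, had 22.3 against 23.0 FPKM (log2 ratio -0.04, interval of the FPKM ratio from 0.853 to 1.11). Mylk, the kinase that starts smooth muscle contraction, had 4.76 against 4.62 FPKM, with a log2 ratio of 0.04 that became -0.09 when both libraries were scaled to the same summed FPKM. Its interval ran from 0.862 to 1.23. Cnn1, calponin 1, an actin-binding brake on the myosin motor, had 1.595 against 1.581 FPKM (0.01, or -0.10 at equal sums). With about 23 against 26 fragments its interval ran from 0.538 to 1.799, so a change of 1.5-fold in either direction was not detectable at this depth.

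Of the surface and signalling genes, Rgs5, Pdgfrb and Cspg4 were lower in the probucol library and Notch3 was not. Rgs5 (chromosome 1, 169655501 to 169695813, plus strand) had 179.5 against 238.4 FPKM, a log2 ratio of -0.41. Its 2 RefSeq transcripts differ greatly in length, so its fragments are known only as a range, at least 616 against 913. Even with these smallest numbers the ratio of 0.753 had an interval from 0.679 to 0.835.

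Pdgfrb encodes the beta receptor through which PDGF recruits and keeps pericytes, and fibroblasts also carry it. It had 7.81 against 11.3 FPKM (log2 ratio -0.51). The ratio of 0.689 had an interval from 0.590 to 0.803, on about 271 against 439 fragments. Cspg4, the gene of the NG2 proteoglycan on pericytes (chromosome 9, 56865033 to 56899870, plus strand), had 1.37 against 2.32 FPKM. Its log2 ratio of -0.59 was the lowest of the 10, and its plain ratio of 0.591 had an interval from 0.441 to 0.795, on about 73 against 137 fragments.

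Notch3, the Notch receptor of vascular smooth muscle and pericytes (chromosome 17, 32120820 to 32166852, minus strand), had 5.06 against 5.003 FPKM. Its log2 ratio of 0.01 became -0.12 at equal sums, and the interval of the plain ratio ran from 0.854 to 1.2. The 4 surface and signalling genes together had a median log2 ratio of -0.46 and the 6 contractile genes one of -0.02. Notch3 and Myh11 stood apart from the others of their groups.

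**Figure D2:**
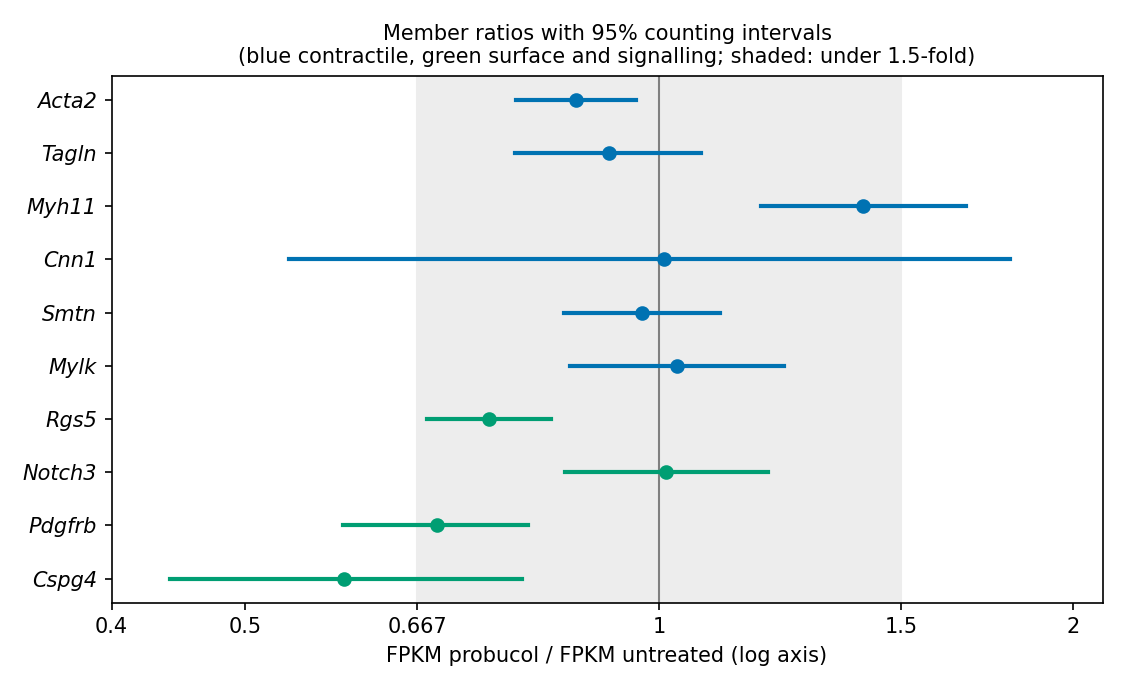
Ratio of FPKM, probucol over untreated, without pseudocount, on a log axis for each of the 10 genes; bars are exact 95% binomial intervals of the estimated fragment ratio (counting error) and the shaded band is less than 1.5-fold. The intervals of Acta2, Rgs5, Pdgfrb and Cspg4 lie below 1, that of Myh11 lies above, and the other 5 include 1.

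On the ratios with pseudocount, 1 of the 10 genes lay past the limit of 1.5-fold. This was Cspg4, just past it at 1.51-fold lower, while Pdgfrb at 1.42-fold fell just short. Without pseudocount the FPKM ratio of Cspg4 was 0.591, further past the limit, and that of Pdgfrb was 0.689, still short of it. Of all 12882 measured genes, 12.0% were lower by 1.5-fold or more and 5.52% higher by as much, and 0 of the 10 genes were higher by this limit. A share of 1 in 10 is near that background. With a pseudocount of 1 in place of 0.5 Cspg4 fell short of the limit and 0 of the 10 were past it, beside 9.98% of all measured genes in the lower direction. At equal summed FPKM Pdgfrb passed as well, so that 2 of the 10 were lower, beside 15.7% of all. The median log2 ratio of the 10 genes was -0.08, with 6 below 0 and 4 above, beside 0.01 for all measured genes. Scaling to equal sums moved the median of all genes by -0.13 and that of the 10 genes to -0.22.

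Other genes of the contractile programme lay on both sides of 0. Of 17 such genes 16 passed the filter, with a median log2 ratio of 0.03 (-0.10 at equal sums). At least 1.5-fold higher were 3 and lower 0, beside 5.52% and 12.0% of all measured genes. All 10 cardiomyocyte markers were higher too (median 0.45), and the part of heart muscle in these 3 was not tested. The 3 were Pcp4l1 (87.0 against 47.7 FPKM, 0.86), Actg2, the enteric smooth muscle actin (2.16 against 1.09, 0.74), and Mustn1 (14.8 against 9.24, 0.65). Actg2 rests on about 16 against 9 fragments, with an interval from 0.825 to 5.09 that includes no difference.

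Other pericyte genes lay on both sides of 0. Of 15 measured genes, 10 lay below 0 and 5 above, with a median of -0.16. Past 1.5-fold were 3 lower genes and 1 higher, beside 12.0% and 5.52% of all measured genes. The 3 were Anpep, the aminopeptidase CD13 that myeloid cells carry too (8.83 against 22.3 FPKM, -1.29), P2ry14, a receptor for UDP-sugars (2.56 against 5.69, -1.02), and Mcam, the adhesion molecule CD146 that endothelial cells share (20.04 against 33.77, -0.74). The 1 higher gene, Foxs1 (3.79 against 2.19, 0.68), has an interval from 0.927 to 3.33 that includes no difference. Abcc9, a subunit of potassium channels that heart muscle also has, was higher beyond counting error but not past the limit (53.4 against 39.7 FPKM, 0.43, interval from 1.27 to 1.44). Both were named after their values were seen.

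Genes of activated fibroblasts and myofibroblasts lay much lower than the contractile genes that myofibroblasts also use. Among 19 measured genes the median was -0.91, and 14 were past 1.5-fold lower and 0 higher. The furthest were Tnc, the matrix protein tenascin C (0.715 against 3.59 FPKM, -1.75), Thbs4, thrombospondin 4 (2.79 against 9.30, -1.57), and Cthrc1, a secreted protein of scar fibroblasts (2.50 against 7.84, -1.48). The level of Acta2 relative to Postn, the gene of periostin, was 0.713 with probucol and 0.360 without, and relative to Col3a1, a collagen of scar, 0.547 and 0.235. Acta2 therefore did not move in proportion to these 2 matrix genes, which were named after their values were seen. The list as a whole ran from -1.75 to 0.04, so some of its genes lay near Acta2 (-0.20). Fibroblast markers had a median of -0.65, with 5 of 9 at least 1.5-fold lower. Whether the difference of Pdgfrb, which fibroblasts share, comes with that of fibroblasts was not tested.

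**Figure D3:**
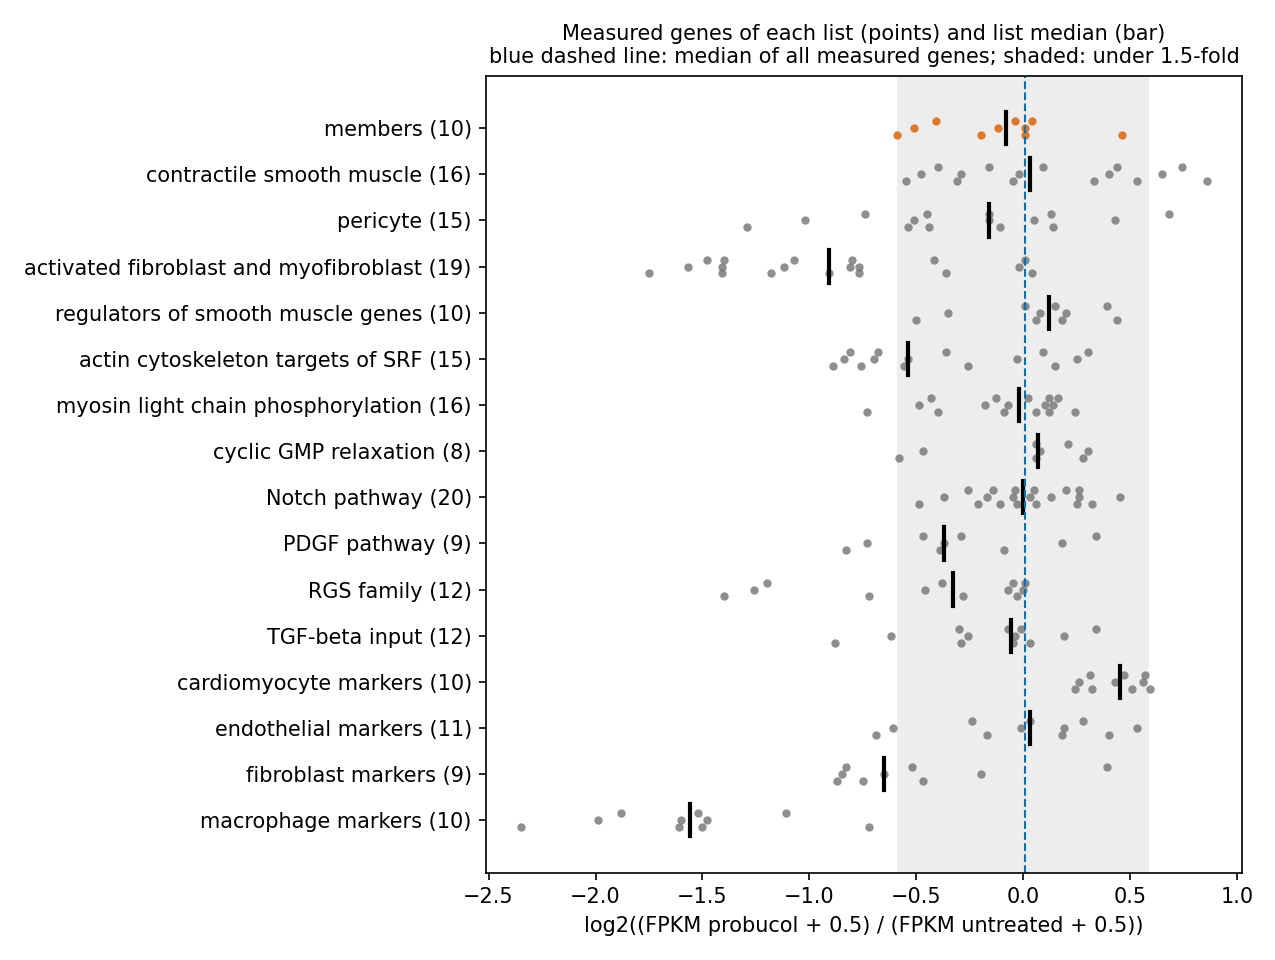
Log2 ratios (FPKM + 0.5, probucol over untreated) of the measured genes of each list, 1 point per gene, with the list's median as a bar and the number of measured genes in parentheses; the dashed line is the median of all measured genes and the band is less than 1.5-fold. The 10 genes (top) lie between -0.59 and 0.46, while activated fibroblast and macrophage genes lie mostly left of the band and cardiomyocyte genes lie to the right of 0.

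The measured regulators of smooth muscle genes each differed by less than 1.5-fold. Srf had 34.0 against 29.6 FPKM (0.20) and Myocd, its partner in heart and smooth muscle, 9.83 against 8.59 (0.18, with an interval of the ratio reaching below 1). Of the myocardin-related factors, which link actin polymerisation to SRF, Mrtfa (listed as Mkl1) had 2.74 against 4.10 FPKM (-0.50) and Mrtfb (listed as Mkl2) 4.97 against 4.66 (0.08). Tead1, which binds M-CAT elements of muscle genes (37.3 against 27.4, 0.44), and Klf4, a repressor of contractile genes (32.0 against 24.4, 0.39), were the highest. The 10 measured regulators had a median of 0.12, or -0.02 at equal sums.

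Cytoskeletal genes that SRF also controls in many cell types had a lower median, -0.54, than the contractile genes, but were not uniform. Of 15 genes 11 lay below 0 and 4 above, with 6 past 1.5-fold lower and 0 higher. Cfl1, the actin-severing protein cofilin, had 199.9 against 370.9 FPKM (-0.89), Actb, cytoplasmic beta-actin, 215 against 384 (-0.84), and Tpm4, a non-muscle tropomyosin, 108 against 190 (-0.81). Above 0 were Tpm1, a tropomyosin that heart muscle makes in large amounts (0.25), and Vcl, vinculin of cell adhesions (0.15), with intervals above 1, and the secreted factors Ccn1 (listed as Cyr61, 0.30) and Ccn2 (listed as Ctgf, 0.09).

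The machinery that turns contraction on and off was nearly even. Of 16 genes of myosin light chain phosphorylation, 8 lay on each side of 0, and 1 was at least 1.5-fold lower. That gene was Myl6, the essential light chain of smooth and non-muscle myosin (509.7 against 843.5 FPKM, -0.73), followed by the regulatory chain Myl12b (-0.49) and the calmodulin gene Calm2 (-0.43). Genes of relaxation by cyclic GMP had a median of 0.07 (-0.06 at equal sums) over 8 measured genes, with 0 past 1.5-fold. Vasp, an actin regulator and substrate of the cyclic GMP-dependent kinase, had -0.58, Gucy1b1 (listed as Gucy1b3), a subunit of the nitric oxide receptor, -0.47, and Irag1 (listed as Mrvi1), a target of that kinase, 0.30.

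Notch signalling genes, like Notch3, showed no difference past the limit. All 20 were measured, 10 on either side of 0, with a median of 0.00 (-0.12 at equal sums). The ligand Jag1, which signals to Notch3 in the vessel wall, had 2.66 against 2.58 FPKM (0.03), and Dll4, a ligand of endothelial cells, 7.78 against 6.73 (0.20). The furthest were Lfng, which modifies Notch receptors (-0.49), the target gene Hes1 (0.45) and Rbpj, the DNA-binding partner of Notch (-0.37).

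On the side of PDGF, both receptors and 3 of 4 ligands were lower by more than counting error. Of 9 genes 7 lay below 0 and 2 above, with a median of -0.37. Pdgfra, the receptor of fibroblasts, had 7.37 against 10.4 FPKM (-0.47), close to the -0.51 of Pdgfrb, and the ratio of Pdgfrb to Pdgfra was 1.06 with probucol and 1.09 without. Pdgfb, the ligand from endothelial cells that holds pericytes in place, had 15.1 against 18.6 FPKM (-0.29), and the ligand Pdgfa 12.9 against 17.0 (-0.39, interval from 0.617 to 0.933). Pdgfd, a further ligand of the beta receptor, had 8.85 against 7.76 (0.18), with an interval that includes no difference. Of this list 2 genes were at least 1.5-fold lower, Lrp1, a co-receptor (-0.83), and the ligand Pdgfc (-0.73).

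Of the other RGS genes, none that was measured stood clearly above 0. Of 19, 12 were measured, 10 below 0 and 2 above, with a median of -0.33 and a highest value of 0.01. At least 1.5-fold lower were 4, and the intervals of the other 8 include no difference. Rgs19 (3.88 against 11.0 FPKM, -1.40), Rgs1 of leukocytes (1.997 against 5.49, -1.26) and Rgs10 of myeloid cells (20.8 against 48.6, -1.20) were lowest. Rgs4 had 8.20 against 8.13 FPKM (0.01) and Rgs16 1.19 against 1.83 (-0.46), with intervals that include no difference. TGF-beta, the signal that induces Acta2 in fibroblasts, had 2 of 12 genes at least 1.5-fold lower, the receptor Tgfbr1 (-0.88) and the ligand Tgfb1 (-0.62). The ligand Tgfb3 had 0.34, and the median of the 12 was -0.06.

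Among the actins, Acta2 lay between the striated muscle and the cytoplasmic genes. The striated muscle actins Acta1 (791 against 309 FPKM, 1.35) and Actc1 (9906 against 8283, 0.26) were higher with probucol, and the cytoplasmic Actb (-0.84) and Actg1 (-0.76) were lower, with Acta2 at -0.20. Acta2 made up 0.508% of the FPKM of the 6 actins with probucol and 0.695% without, and Actc1 88.7% and 88.3%.

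Most non-muscle relatives of the other contractile genes were lower with probucol too. The myosin heavy chains Myh9 and Myh10 had -0.56 and -0.13, against 0.46 for Myh11, while the non-muscle Myh14 was the exception at 0.58. The interval of Myh10 includes no difference. Tagln2, the transgelin of leukocytes and other non-muscle cells, had 90.3 against 149 FPKM (-0.71). Cnn2 (-0.42) and Cnn3 (-0.46), the calponins of non-muscle cells, had lower ratios than Cnn1.

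The kinases of striated muscle, Mylk3 (242 against 166 FPKM, 0.55) and Mylk4 (27.9 against 15.0, 0.88), were higher, beside 0.04 for Mylk. The other Notch receptors lay near Notch3, with Notch1 at 0.13, Notch2 at -0.14 and Notch4 at -0.04. Smtnl2, related to Smtn, had -0.13. Tagln3 (0.156 against 0.140 FPKM), Smtnl1 (0.0962 against 0) and Mylk2 (0 against 0.0489) did not pass the filter.

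**Figure D4:**
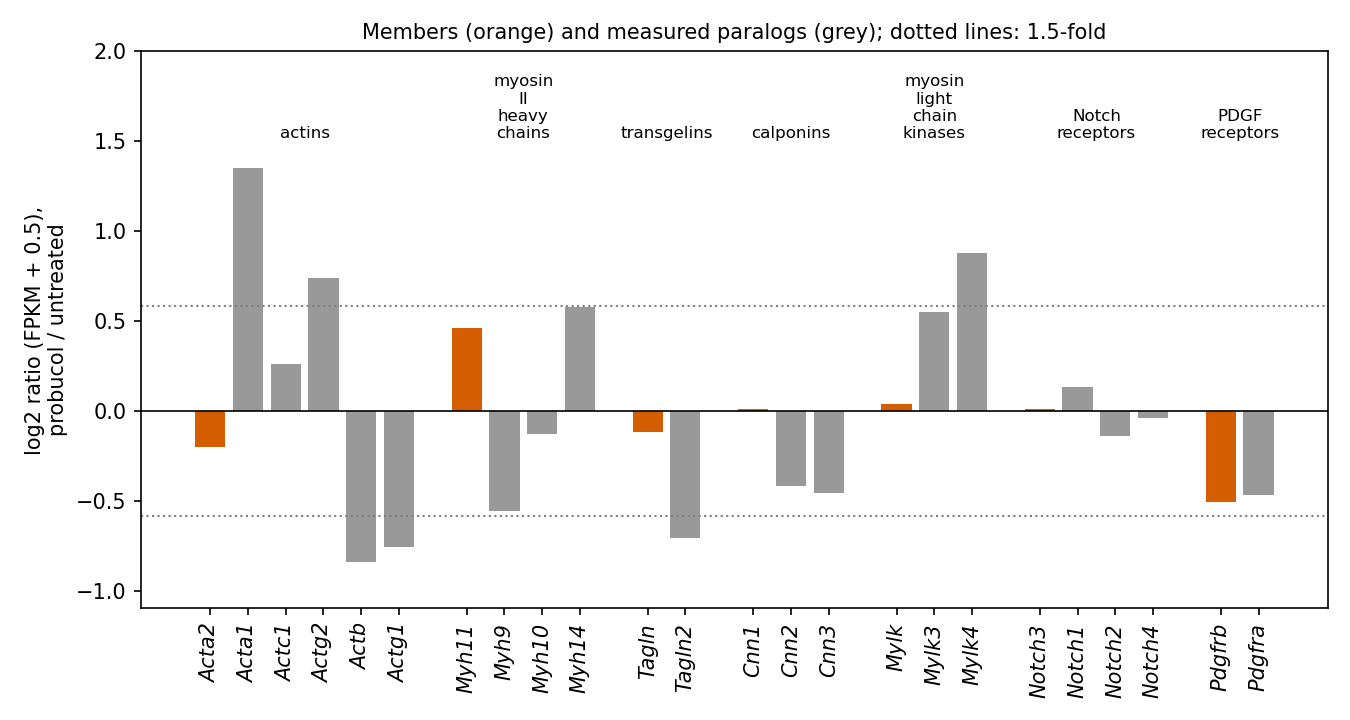
Log2 ratios (FPKM + 0.5, probucol over untreated) of members (orange) and their measured paralogs (grey), grouped by family, with dotted lines at 1.5-fold. Acta2 lies between the striated muscle actins above 0 and the cytoplasmic actins below 0, and Tagln and Cnn1 lie nearer 0 than their non-muscle relatives.

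Markers of other heart cells differed between the libraries to very unequal extents, and their part in the differences above was not tested. All 10 cardiomyocyte markers lay above 0 (0.24 to 0.59, median 0.45), with a summed level of 67380 FPKM with probucol and 48730 without. The 10 macrophage markers were all past 1.5-fold in the lower direction (median -1.56), with summed levels of 1091 and 3591 FPKM. Endothelial markers, of the cells that pericytes cover, lay closest to the 10 genes, with a median of 0.03 (-0.12 at equal sums), from -0.69 for Vwf to 0.53 for Flt1, with summed levels of 419.6 and 426.3 FPKM. Relative to Pecam1 of endothelial cells, itself lower at -0.24, Acta2 had 0.756 with probucol and 0.733 without, and Rgs5 2.39 and 2.68. Pecam1 is 1 of 11 endothelial markers, of which 5 lay below 0 and 6 above. These ratios therefore hold for Pecam1 and not for endothelial markers in general. Of skeletal muscle markers 2 of 8 passed the filter, and Myh4, Myh2 and Myog were listed at 0 in both libraries. Adipocyte markers (2 of 6 past the filter), markers of glia and Schwann cells (3 of 6), which can also carry Cspg4, and mesothelial markers (2 of 6) were near the limit of detection, with summed levels of at most 5.87 FPKM in either library.

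Some members share sequence with transcripts of the opposite strand, and no source used here says whether the counting used strand, although the library kit marks it. Of the 50-base windows of Tagln, 48.3% also lie in antisense transcripts. Most of these, 688 windows, belong to an unnamed antisense gene without a deposited value, so its level is not known. The other 59 belong to Pcsk7, which had 6.89 against 6.80 FPKM. The share was 13.2% for Smtn, 4.92% for Notch3 and 4.28% for Mylk, and 0% for the other 6 genes. On the same strand no member shared more than 0.4% of its windows, the value of Myh11, with Myh9 and Myh10.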

How the data were processed

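The authors deposited FPKM values, 1 table per library. Per the labels' protocols, a miRNeasy kit gave total RNA and a TruSeq stranded mRNA kit the libraries. Per the submitters' processing notes, TopHat2 2.1.1, Bowtie2, Cuffdiff 2.2.1 and the build mm10 were used. Their roles, the annotation and any scaling across libraries were not given in the sources used here.

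Groups were taken from the treatment label. Log2 ratios used a pseudocount of 0.5 FPKM without rescaling, for genes with a mean of at least 0.5 FPKM. Fragment numbers were estimated from the steps of low values of 14506 genes with 1 RefSeq transcript, with 210 bases subtracted from the GENCODE M21 length. For members with several transcripts the shortest was taken. These lengths may differ from the authors', so fragment numbers are approximate. The code was tested on simulated data. Alternatives were other pseudocounts, filters and scalings. Analyses used Python 3.11.15, pandas 2.3.3 and scipy 1.17.1.

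The 10 members and the other 20 lists were chosen with earlier results of these data known. The genes named are all members and their paralogs, 8 regulators and ligands, and up to 3 measured genes of each list, those furthest from 0. Abcc9, Ccn1, Ccn2, Col3a1, Foxs1, Myh2, Myh4, Myog, Pcsk7, Pdgfa, Pecam1, Postn, Tpm1 and Vcl were named besides, after their values were seen. Sequences came from GENCODE M21 and RefSeq. The position and sequence of Pdgfrb are not reported here.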

Additional observations from a re-analysis of the deposited data

How the results depend on the processing

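No paired analysis was possible because each group has 1 library, and for the same reason no library could be left out. The number of members at least 1.5-fold lower was 1 as reported, 0 with a pseudocount of 1, and 2 at equal summed FPKM, where Pdgfrb joined Cspg4. Over 8 alternatives (2 pseudocounts, 3 scalings, 2 filters and protein-coding genes alone, the last chosen after the data were seen), Acta2, Tagln, Smtn, Rgs5, Pdgfrb and Cspg4 stayed below 0 and Myh11 above. Acta2 ranged from -0.34 to -0.20, Rgs5 from -0.55 to -0.41, Pdgfrb from -0.65 to -0.49, Cspg4 from -0.72 to -0.49 and Myh11 from 0.32 to 0.48. Cnn1, Mylk and Notch3 fell below 0 at equal sums alone, within their counting intervals. The median of the members ranged from -0.22 to -0.08, and the count of members higher by 1.5-fold was 0 throughout. Of the members Cnn1 has the fewest fragments, 23 in the probucol library, and several other named genes have fewer, such as Actg2 with 16.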
